A study of Mus musculus with 4 samples.

Results

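Tumour necrosis factor (TNF) ligands and their receptors form a family of proteins through which lymphocytes stimulate, restrain and kill each other. Ligands of the family are mostly trimeric proteins on the surface of one cell that bind receptors on another. Receptors with a death domain can start apoptosis, and many receptors of the family recruit TRAF adaptor proteins and activate NF-kB. Regulatory T cells are known for high surface levels of several of these receptors, among them OX40, GITR, 4-1BB and TNF receptor 2. The genes described here were chosen by name, as table rows whose symbol starts with Tnfrsf or Tnfsf together with 10 relatives that carry other symbols (Tnf, Lta, Ltb, Cd27, Cd40, Cd40lg, Cd70, Fas, Fasl and Ltbr). This gave 42 of 24061 gene rows, of which 34 had at least 40 counts over the 4 libraries and are reported. Of these 34 genes, 21 encode receptors and 13 ligands.

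The series profiled sort-purified effector regulatory T cells (CD4+FoxP3+) from the Peyer's patches of 13 weeks old mice on a C57BL/6 background (N5 backcross). All mice carried FoxP3-YFP-cre, a Cre recombinase with a fluorescent reporter that is active in FoxP3-expressing cells, and housing excluded Helicobacter hepaticus. By label, 2 libraries came from Maf+/+ mice (labelled wt 1 and wt 2) and 2 from Mafflox/flox mice (labelled flox 1 and flox 2), in which Cre should delete the transcription factor gene Maf. The labels do not say whether animals were pooled or whether the libraries of a group came from separate animals, and the p-values therefore describe only how far these libraries spread, which may be technical.

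Maf itself went with the number in the sample title, not with the genotype. Its counts were 3071 for wt 1 and 2975 for flox 1, against 40 for wt 2 and 15 for flox 2. The libraries labelled flox 1 and wt 2 thus go against their genotype label. The authors' deposited normalized values also follow the number: recomputed from the raw counts as adjusted counts of edgeR, 100% of 42472 values matched within a relative tolerance of 1e-06 with the libraries grouped by number, and 3.25% with the libraries grouped by genotype label. The main comparison here is therefore between the title numbers, both libraries numbered 1 (Maf high) against both numbered 2 (Maf low), and the comparison of labelled flox with labelled wt is given after it. A separate replicate entry in the labels disagrees with the title number: it gives 1 for both libraries titled wt and 2 for both titled flox. It cannot be told from the labels whether titles were exchanged, in which case the number would stand for the genotype and the comparison of labelled flox with labelled wt would not. The labels do not say what the number marks, and the Maf level cannot be told apart from anything else that goes with it. Values for 4 libraries are listed in the order labelled wt 1, flox 1, wt 2 and flox 2, so that the first 2 are the libraries numbered 1.

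Gene totals ranged from 19368745 to 24687897 counts. Cd4, Cd3e and Foxp3, markers of the sorted cells, were present in every library, with Cd4 between 919 and 997 CPM (the count divided by the TMM-adjusted library size and scaled so that libraries of unequal depth can be compared), Cd3e between 1238 and 1369 and Foxp3 between 91.0 and 104. Heat shock genes were highest in the library labelled flox 2, with Hspa1a at 35.5, 80.9, 103 and 891 CPM. Between the numbers, edgeR's quasi-likelihood test called 236 of 13022 genes at a p below 0.05 after Benjamini-Hochberg adjustment, 184 higher and 52 lower in the libraries numbered 1, which are 1.81%, 1.41% and 0.399% of the genes tested. Leaving out 1 library changed this to 46 without wt 1, 116 without flox 1, 525 without wt 2 and 504 without flox 2.

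Of the 34 reported genes 33 passed the filter on low counts, all but Tnfrsf21. In the comparison by number, 1 of these 33 was called by edgeR's quasi-likelihood test, the ligand gene Tnfsf10, lower in the libraries numbered 1, and 10 had an unadjusted p under 0.05, as had 1768 of the 13022 genes tested. With 1.81% of all genes called, a single call among 33 is not a result about the family as a whole. The number of calls depended on single libraries. It was 7 without the library labelled flox 2 (Tnfrsf1b, Tnfrsf4, Cd27, Tnf and Cd40lg higher, Tnfsf10 and Fasl lower in number 1), 5 without wt 2 (Tnfsf10, Fasl, Lta, Ltb and Tnfsf8, all lower in number 1), and 0 without wt 1 or without flox 1. In these fits 1 number holds a lone library, which is assumed to vary like the others. Calls over all genes rose and fell in the same fits, as given above, so these counts are not a result about the family either.

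Of 20 tested receptor genes, 10 had both libraries numbered 1 above both numbered 2, 0 had them below and 10 overlapped, and the median log2 fold change (number 1 over number 2) was 0.26. Of 13 ligand genes, 2 lay above, 7 below and 4 overlapped, with a median of -0.37. Over all 13022 genes tested the median was -0.01. Of them 2928 lay above and 2957 below, so that 45.2% of genes did not overlap between the numbers. The difference between receptors and ligands was not tested.

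**Figure D1:**
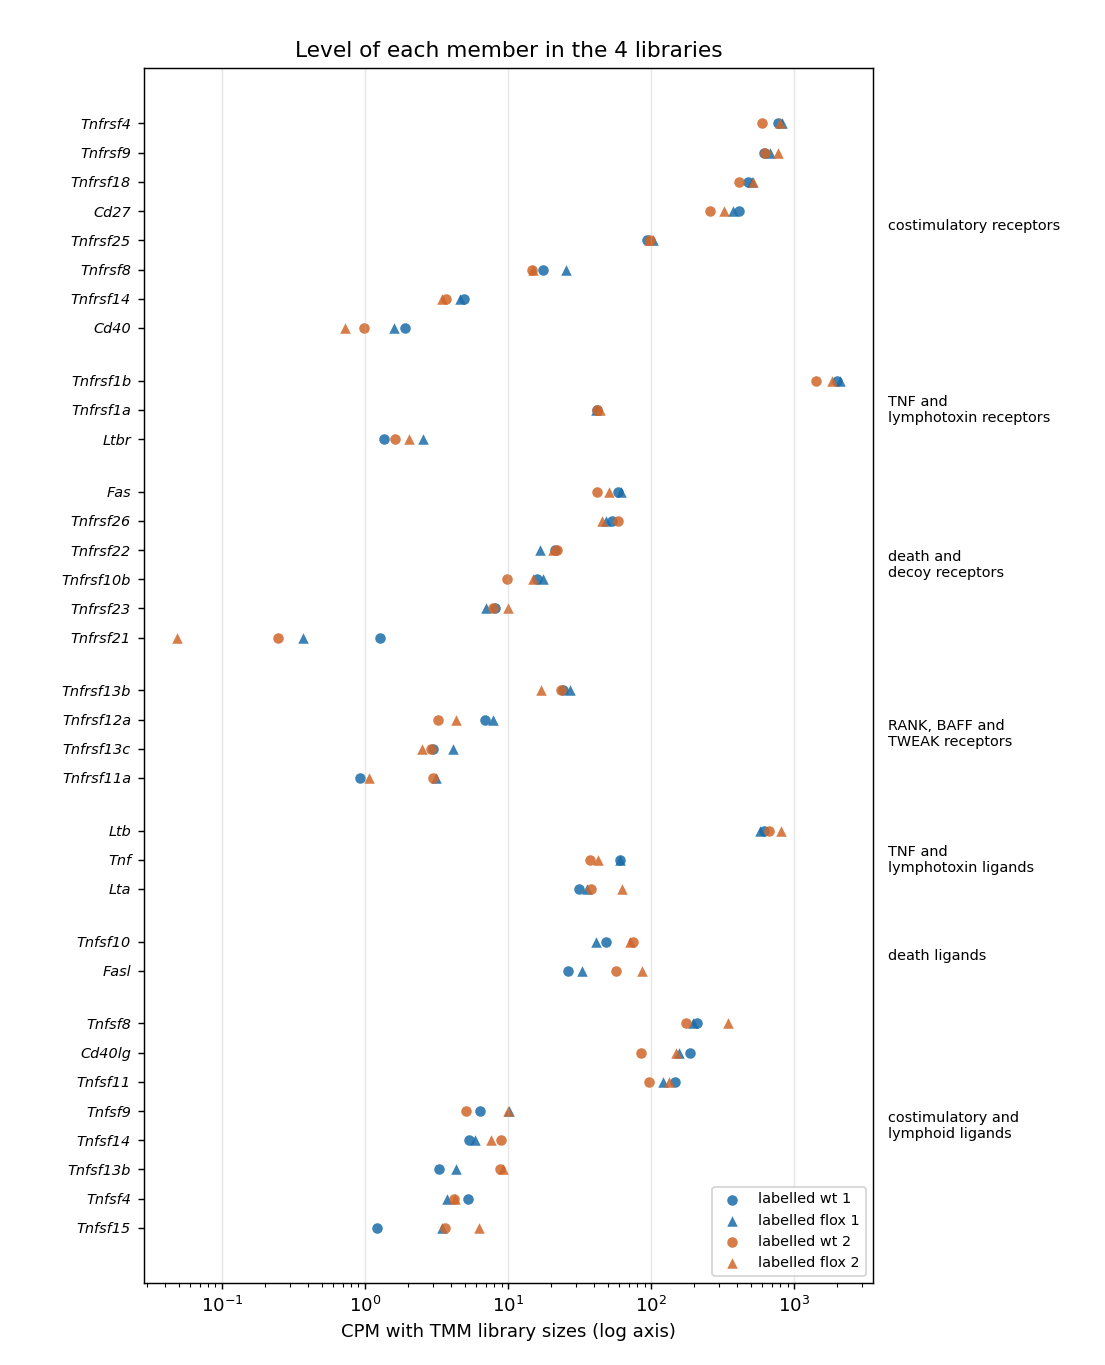
Level of the 34 reported genes in each library, as CPM with TMM library sizes on a log axis, grouped by role; each point is 1 library, blue for the libraries numbered 1 (Maf high), orange for those numbered 2 (Maf low), circles for labelled wt and triangles for labelled flox. Tnfrsf1b is the most abundant at 1426 to 2084 CPM, and the blue points of Fasl, Tnfsf10 and Tnfsf13b lie to the left of the orange ones.

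The group of death ligands holds Tnfsf10, the called gene, and Fasl, which did not pass. Tnfsf10 encodes TRAIL, which triggers apoptosis through death receptors on target cells. It had 996 and 1007 counts in the libraries labelled wt 1 and flox 1 and 1515 and 1477 in wt 2 and flox 2, or 48.4, 41.2, 74.9 and 71.4 CPM. Both libraries numbered 1 were below both numbered 2, with means of 44.8 ± 5.08 and 73.1 ± 2.45 CPM (SD, n = 2 each). The log2 fold change was -0.71 (SE 0.12), with an adjusted p = 0.0451 by edgeR, or 1.63 times as much in the libraries numbered 2. The ratio of number 1 to number 2 was 0.647 within labelled wt (95% interval 0.596 to 0.701) and 0.577 within labelled flox (0.532 to 0.626), where intervals cover counting error only. The call sits close to the threshold: it was kept under 9 of 13 alternative settings, with adjusted p from 0.000516 to 0.233, and was lost without wt 1, without flox 1, with limma-voom (adjusted p = 0.0512) and without robust estimation of the spread (adjusted p = 0.0585).

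Fasl, the Fas ligand of cytotoxic lymphocytes, had the most negative fold change of all members. Its counts were 538, 802, 1154 and 1777, or 26.1, 32.8, 57.0 and 85.9 CPM. Libraries numbered 1 lay below those numbered 2 within both labels, with ratios of 0.459 (0.413 to 0.508) within wt and 0.382 (0.351 to 0.416) within flox. The library labelled flox 2, which also had the most Hspa1a, was the highest. The log2 fold change was -1.28 (SE 0.23), and the gene did not pass (edgeR adjusted p = 0.0679). DESeq2 called it (adjusted p = 4.31e-06), and over 13 alternatives the adjusted p ran from 4.31e-06 to 0.347, under 0.05 in 6.

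Both death ligands are also genes of cytotoxic lymphocytes, and markers of CD8 T and natural killer cells were read beside them. The summed level of the 8 listed markers was 67.7 and 92.6 CPM in the libraries numbered 1 and 186 and 220 CPM in those numbered 2. Most of this came from Nkg7, a granule membrane gene, with 12.7, 30.9, 101 and 118 CPM, and from Klrb1c, a natural killer receptor, with 22.5, 21.2, 44.9 and 68.5 CPM. Klrb1c passed (log2 fold change -1.37, SE 0.21, edgeR adjusted p = 0.0368), the 1 of 7 tested markers to do so. Over these 7 the median log2 fold change was -0.13, and 3 of the 7 had a positive one. In 3 of them the libraries numbered 1 lay below those numbered 2, in 0 above, and 4 overlapped, where 45.2% of all genes did not overlap. The defining CD8 markers overlapped between the numbers. Cd8a had 8.55, 11.01, 5.19 and 9.18 CPM, and Cd8b1 had 12.7, 16.6, 17.1 and 12.1. The part of such cells in the levels of Fasl and Tnfsf10 was not tested. In bulk RNA, a change in the share of cells with a transcript and a change in RNA per cell cannot be told apart.

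**Figure D2:**
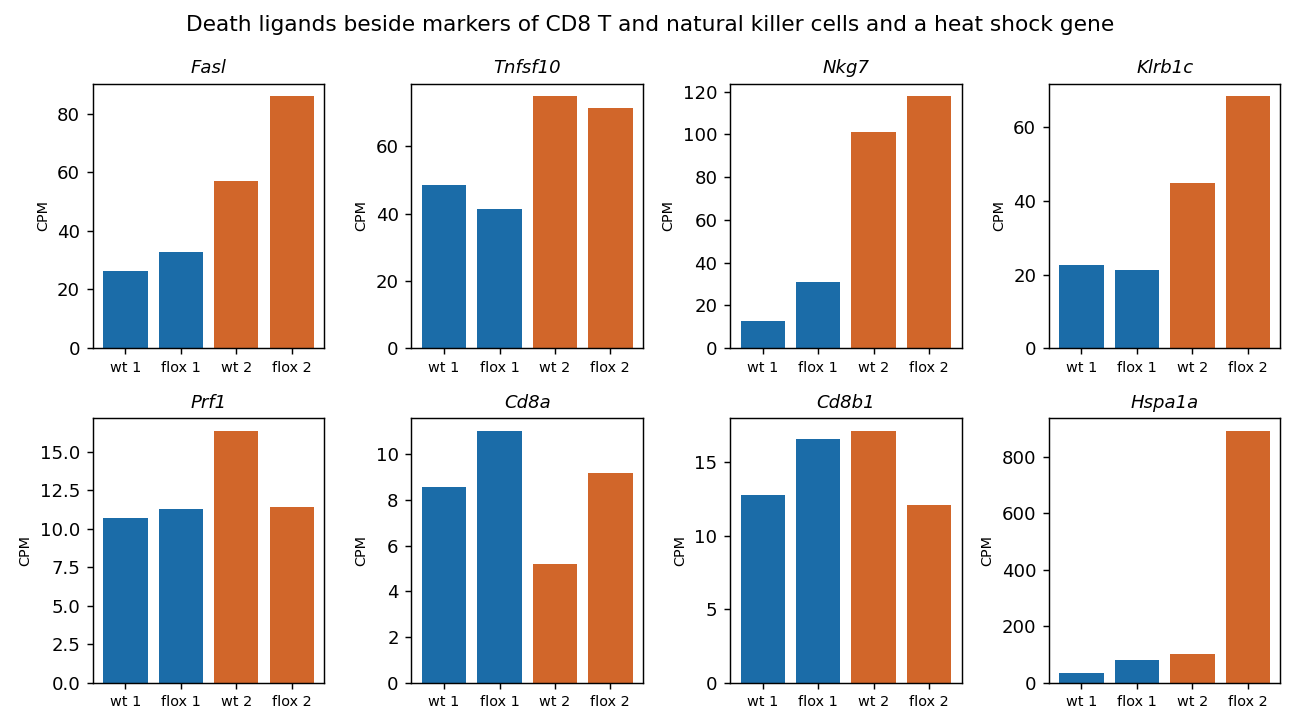
CPM of the 2 death ligand genes, of 5 marker genes of CD8 T and natural killer cells and of the heat shock gene Hspa1a, 1 bar per library from 0, blue for libraries numbered 1 and orange for those numbered 2. Fasl, Tnfsf10, Nkg7 and Klrb1c are higher in both orange bars, Cd8a and Cd8b1 are not, and Hspa1a is at 891 CPM in the library labelled flox 2.

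The receptors of the death ligands did not pass. Fas, the receptor for Fas ligand, had 58.4, 61.4, 41.6 and 50.7 CPM, with both libraries numbered 1 above both numbered 2 (log2 fold change 0.38, SE 0.13, edgeR adjusted p = 0.273). Tnfrsf10b, the mouse TRAIL death receptor, had 16.0, 17.4, 9.83 and 14.9 CPM (log2 fold change 0.43, SE 0.24, edgeR adjusted p = 0.51). The decoy receptors for TRAIL, Tnfrsf22 and Tnfrsf23, and the related Tnfrsf26 form a cluster on chromosome 7. Tnfrsf22 had 21.2, 16.8, 22.1 and 20.7 CPM, Tnfrsf23 had 8.16, 6.96, 7.81 and 9.91, and Tnfrsf26 had 53.3, 48.3, 58.3 and 45.6, with overlapping groups in all 3. Transcripts of Tnfrsf22 and Tnfrsf23 are 91.7% identical over 1451 aligned bases, so the split of reads between them is uncertain. Tnfrsf21, which encodes death receptor 6, had 26, 9, 5 and 1 counts and was not tested.

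Tnf, Lta and Ltb lie side by side on chromosome 17 (mm10, positions 35194439 to 35205351), with Ltb on the plus strand and Tnf and Lta on the minus strand. None of them passed. Tnf, the founding cytokine of the family, had 60.6, 60.6, 37.2 and 42.7 CPM, so that both libraries numbered 1 were above both numbered 2. Its log2 fold change was 0.60 (SE 0.12) and it did not pass (edgeR adjusted p = 0.0739, range over the alternatives 0.00671 to 0.388, called in 3 of 13). Lta, which encodes lymphotoxin alpha, had 31.1, 35.9, 38.1 and 62.7 CPM with the highest value in the library labelled flox 2 (log2 fold change -0.59, SE 0.24, edgeR adjusted p = 0.382). Ltb, which encodes the membrane partner of lymphotoxin alpha in lymphoid tissue, had 615, 575, 671 and 813 CPM (log2 fold change -0.32, SE 0.11, edgeR adjusted p = 0.266). Both lymphotoxin genes had their libraries numbered 1 below those numbered 2. Whether Tnf differed from its neighbours was not tested.

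The sequence upstream of a start site is shown for Tnfsf10, the called gene, for Fasl, the other death ligand with lower values in number 1, and for Tnf, which had higher ones. They were taken from RefSeq promoters (GRCm38.p6, the mm10 build) as the bases before the RefSeq start site that lie outside the annotated gene, 5′ to 3′ on the gene's strand, at chr3:27316827-27317027 (plus), chr1:161788496-161788745 (minus) and chr17:35202008-35202257 (minus).
Tnfsf10: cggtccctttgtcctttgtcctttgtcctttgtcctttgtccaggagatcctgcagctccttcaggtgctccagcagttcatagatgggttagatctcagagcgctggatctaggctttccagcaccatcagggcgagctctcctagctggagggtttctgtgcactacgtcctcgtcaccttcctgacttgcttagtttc
Fasl: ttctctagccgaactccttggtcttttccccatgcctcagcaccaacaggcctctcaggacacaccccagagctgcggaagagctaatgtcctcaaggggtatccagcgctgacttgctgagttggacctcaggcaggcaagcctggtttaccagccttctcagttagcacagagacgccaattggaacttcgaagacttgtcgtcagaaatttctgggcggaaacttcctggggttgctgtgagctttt
Tnf: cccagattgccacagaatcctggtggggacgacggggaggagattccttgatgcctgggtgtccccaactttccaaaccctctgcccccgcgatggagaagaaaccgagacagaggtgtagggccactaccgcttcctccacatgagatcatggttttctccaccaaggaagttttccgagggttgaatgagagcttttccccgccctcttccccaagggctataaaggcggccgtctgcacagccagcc

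Windows of 250 bases before the start were searched on both strands for a half-site of the Maf recognition element (TGCTGAC), for the AP-1 site (TGANTCA) and for the kappaB consensus. One type of full Maf recognition element holds an AP-1 site, so the searches can overlap. RefSeq promoters were found for 27 of the 34 genes, with 30 windows. The half-site was in 2 of the 30 windows, against 3.81% of all 32851 windows, the AP-1 site in 5 (6.75% of all) and the kappaB consensus in 4 (7.25% of all). None of these strings was in the windows of Tnfsf10, Fasl or Tnf, and no capitals therefore appear above. The windows with the half-site belong to Tnfrsf13b (chr11:61126647-61126673, plus) and Tnfsf8 (chr4:63861496-63861522, minus), shown with the half-site in capitals. A match describes letters and not binding, and neither gene passed the test.
Tnfrsf13b: gcaggcgcagGTCAGCAgggtggctta
Tnfsf8: gtcattgtgcTGCTGACaaaggactgc

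The costimulatory receptors were the most abundant group, and none of its 8 genes passed by number, where 1.81% of all genes tested did. Compared per length (RPKM, from exon lengths of GENCODE M21, which may not be the authors' gene models), the highest mean levels among all members were those of Tnfrsf4 at 549, Tnfrsf1b at 480, Ltb at 441, Tnfrsf18 at 313 and Tnfrsf9 at 248, followed by Cd27 at 147 and Cd40lg at 115. Tnfrsf4 encodes OX40, a receptor that sustains activated T cells, and had 775, 824, 594 and 802 CPM. The library labelled wt 2 was the low one, the groups overlapped, and the log2 fold change was 0.20 (SE 0.14, edgeR adjusted p = 0.647). Without the library labelled flox 2 it was 0.43 and called (adjusted p = 0.0358, range over the alternatives 0.0358 to 0.981), and without wt 2 it was -0.01.

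Tnfrsf9, which encodes 4-1BB, a marker of recently activated regulatory T cells, had 616, 681, 629 and 771 CPM and a log2 fold change of -0.11 (SE 0.12, edgeR adjusted p = 0.766). Tnfrsf18, which encodes GITR, had 472, 505, 410 and 520 CPM and a log2 fold change of 0.07 (SE 0.12, edgeR adjusted p = 0.869). Both genes overlapped between the numbers, and a p that misses the threshold does not show equal levels. Reads of Tnfrsf18 may include those of Gm16008, which overlaps 414 bases of its exons, since the use of strand in counting is not given in the sources used here.

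Cd27, a receptor of memory and effector T cells that binds CD70, had 410, 374, 259 and 324 CPM. Both libraries numbered 1 were above both numbered 2, with a log2 fold change of 0.43 (SE 0.12), but it did not pass (edgeR adjusted p = 0.196, range over the alternatives 0.0168 to 0.683, called in 3 of 13). The ratio was 1.58 within labelled wt and 1.15 within labelled flox. The remaining costimulatory receptors were lower in level. Tnfrsf25, which encodes death receptor 3, had 93.1, 103, 98.1 and 97.0 CPM and the flattest pattern of the group (log2 fold change 0.00, SE 0.09). Tnfrsf8, which encodes CD30, had 17.5, 25.4, 14.8 and 15.03 CPM (log2 fold change 0.53, SE 0.21, edgeR adjusted p = 0.35), with the library labelled flox 1 highest. Tnfrsf14, which encodes the herpesvirus entry mediator, had 4.91, 4.63, 3.66 and 3.48 CPM.

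Tnfrsf1b encodes TNF receptor 2, the TNF receptor typical of regulatory T cells, and was the most abundant member by CPM. It had 1988, 2084, 1426 and 1825 CPM, with both libraries numbered 1 above both numbered 2 (log2 fold change 0.33, SE 0.12, edgeR adjusted p = 0.315). It was called only without the library labelled flox 2 (log2 fold change 0.51, adjusted p = 0.0101, range over the alternatives 0.0101 to 0.705). Tnfrsf1a, the broadly expressed TNF receptor 1 with a death domain, had 42.1, 41.2, 41.6 and 44.2 CPM (log2 fold change -0.04, SE 0.11). Ltbr, the lymphotoxin beta receptor of stromal and myeloid cells, had 28, 62, 33 and 42 counts. Per length, Tnfrsf1b at 480 RPKM stood far above Tnfrsf1a at 16.3 and Ltbr at 0.803.

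**Figure D3:**
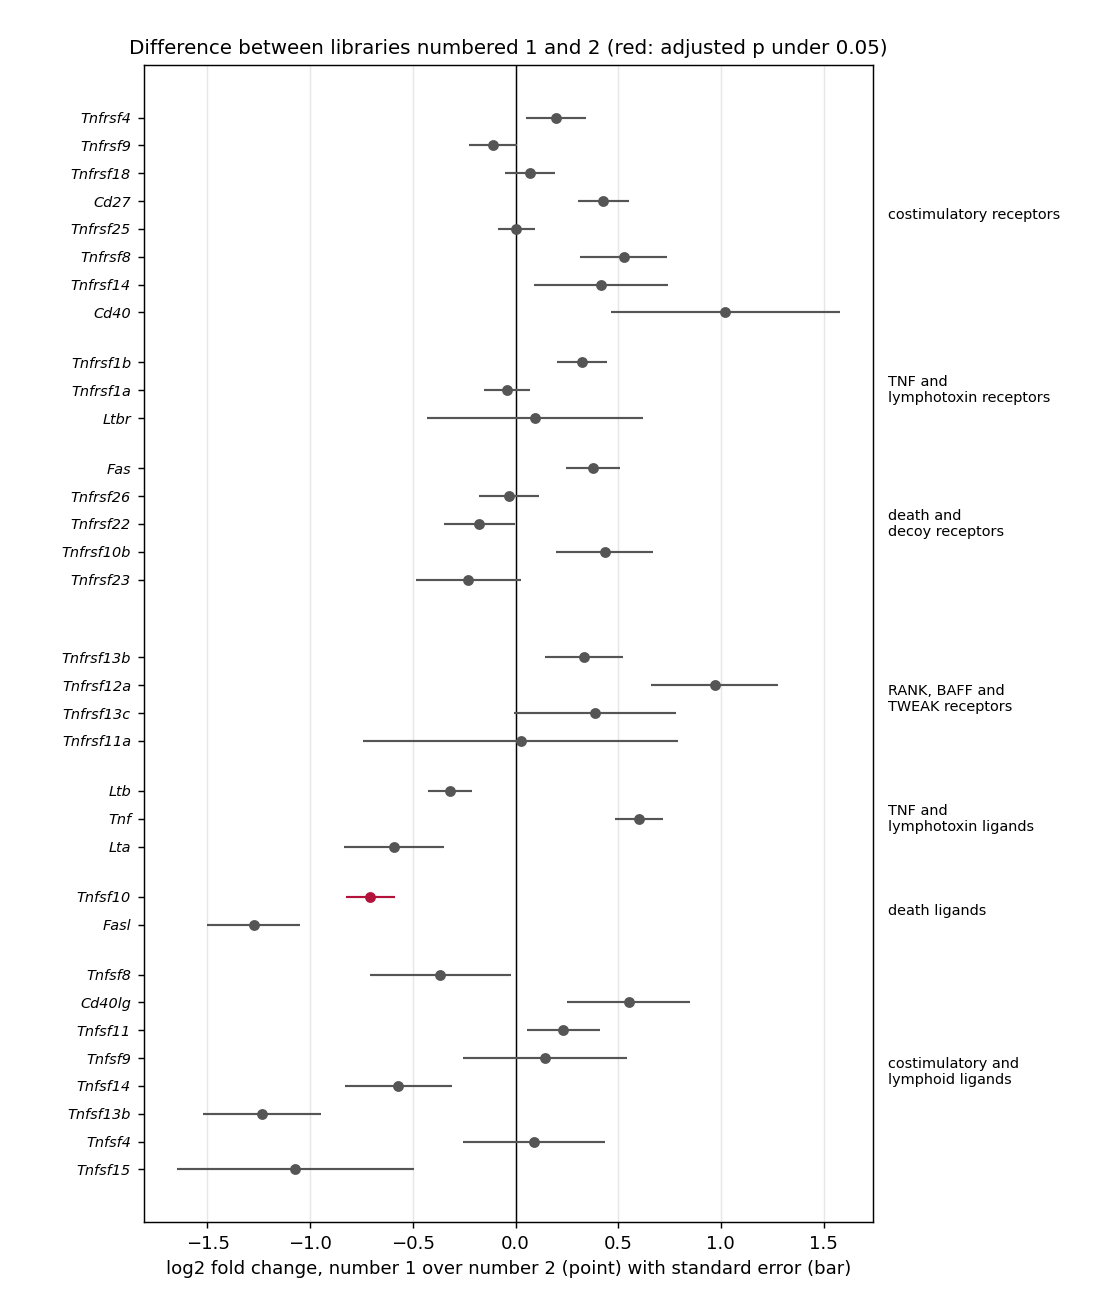
Log2 fold change of the libraries numbered 1 over those numbered 2 for the 33 tested genes, with the standard error as a bar, grouped by role; red marks an adjusted p under 0.05 by edgeR's quasi-likelihood test. Tnfsf10 at -0.71 is the 1 red point, most receptor genes lie right of 0, and the ligand genes spread from -1.28 (Fasl) to 0.60 (Tnf).

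Among the ligands of costimulatory and lymphoid receptors, none of 8 genes passed by number, where 1.81% of all genes tested did. Cd40lg, which encodes the ligand by which T cells help B cells, had 187, 156, 84.7 and 149 CPM, the library labelled wt 2 being the low one (log2 fold change 0.55, SE 0.30, edgeR adjusted p = 0.54). The ratio was 2.20 within labelled wt and 1.05 within labelled flox. It was called without the library labelled flox 2 (log2 fold change 1.01, adjusted p = 0.00886, range over the alternatives 0.00886 to 0.916). Its receptor gene Cd40, typical of B cells and antigen-presenting cells, had 39, 39, 20 and 15 counts. Tnfsf8, which encodes the CD30 ligand, had 210, 195, 177 and 345 CPM, with the library labelled flox 2 far above the rest (log2 fold change -0.37, SE 0.34, edgeR adjusted p = 0.745). Without that library the log2 fold change was 0.20, and without wt 2 it was -0.78 and called (adjusted p = 0.00518, range over the alternatives 0.00518 to 0.954).

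Tnfsf11, which encodes RANKL, a cytokine needed for lymphoid organs and M cells of the Peyer's patch epithelium, had 147, 121, 96.0 and 132 CPM, with overlapping groups. Tnfrsf11a, which encodes its receptor RANK, had 19, 77, 60 and 22 counts, so that the libraries labelled flox 1 and wt 2 were the high ones. Tnfsf13b encodes BAFF, a survival factor for B cells. It had 68, 106, 177 and 192 counts, or 3.30, 4.34, 8.75 and 9.28 CPM, with the libraries numbered 1 below those numbered 2 (log2 fold change -1.23, SE 0.29, edgeR adjusted p = 0.12, range over the alternatives 0.027 to 0.505, called in 2 of 13). Its receptor genes Tnfrsf13b (TACI) and Tnfrsf13c (BAFF receptor) had 24.1, 26.9, 23.5 and 17.0 CPM and 2.96, 4.13, 2.92 and 2.51 CPM.

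The remaining ligand and receptor genes were of low level and are given in CPM. Tnfsf14, which encodes LIGHT, had 5.30, 5.90, 8.99 and 7.64, and Tnfsf15, which encodes the ligand of death receptor 3, had 1.21, 3.44, 3.61 and 6.24. In both, the libraries numbered 1 lay below those numbered 2. Tnfsf4, which encodes the OX40 ligand, had 5.25, 3.77, 4.20 and 4.25, and Tnfsf9, which encodes the 4-1BB ligand, had 6.41, 10.2, 5.09 and 9.96. Tnfrsf12a, which encodes the TWEAK receptor, had 6.90, 7.82, 3.21 and 4.30, with the libraries numbered 1 above those numbered 2 (log2 fold change 0.97, SE 0.31, edgeR adjusted p = 0.238). The 8 genes under 40 counts were Cd70 and Tnfsf13 with 9 counts each in all, Tnfsf18 with 5, Tnfrsf17 with 4, Tnfrsf11b and Tnfrsf19 with 1 each, and Tnfsf12 and its joint transcript with Tnfsf13 with 0. Exons of Tnfsf12 and Tnfsf13 share bases with another annotated gene, Tnfsfm13. How reads on shared bases were counted is not given in the sources used here. Low counts of Tnfsf12, Tnfsf13 and their joint transcript therefore do not show that these genes were silent. For genes without shared exons, a count of 0 in a library allows a level of up to 0.148 CPM.

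**Figure D4:**
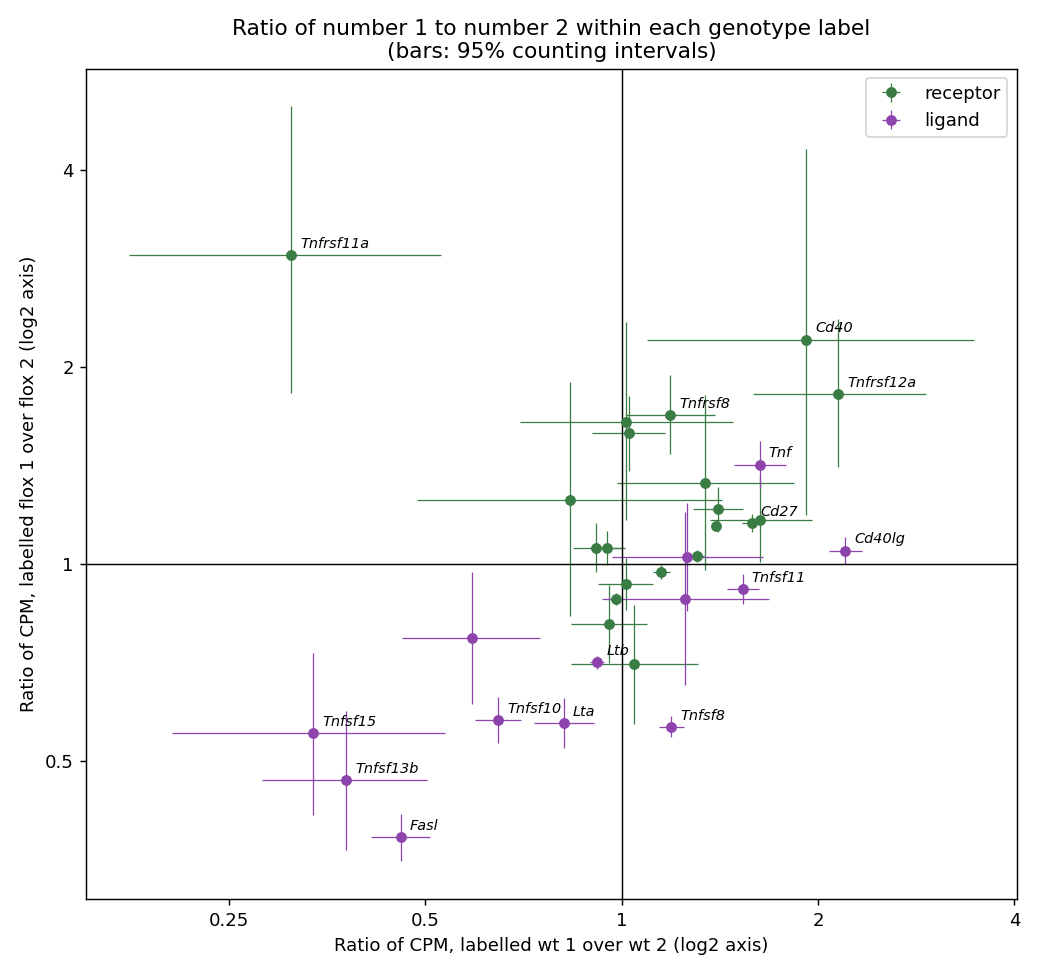
Ratio of CPM between the libraries numbered 1 and 2 within labelled wt (horizontal) and within labelled flox (vertical), both on log2 axes, for the 33 tested genes, with 95% counting intervals as bars; green points are receptors and purple points ligands. Fasl, Tnfsf10, Tnfsf13b and Tnfsf15 lie below 1 on both axes, Tnf and Tnfrsf12a above 1 on both, and Tnfsf8 and Tnfrsf11a on opposite sides.

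Markers of other cells were present in every library. B cell and plasma cell markers, 12 listed, summed to 72.3, 149, 94.6 and 73.8 CPM, myeloid and dendritic cell markers (11) to 28.1, 114, 74.8 and 63.5, and epithelial markers (11) to 201, 474, 482 and 348. Epcam, an epithelial adhesion gene, had 75.8, 91.8, 140 and 89.2 CPM, which is near the level of Foxp3. None of the tested genes of these 3 lists passed by number. Of 11 tested B cell markers, 4 had the libraries numbered 1 above those numbered 2, 0 had them below and 7 overlapped, with a median log2 fold change of 0.92. Thus 36.4% of these markers did not overlap, against 45.2% of all genes tested. The sums overlapped between the numbers and were lowest in the library labelled wt 1. Several members are known chiefly from such cells, namely Cd40, Tnfrsf13b, Tnfrsf13c, Ltbr, Tnfsf13b, Tnfsf15 and Tnfrsf11a, and the part of these cells in their levels was not tested. Of 9 stromal and endothelial markers only 4 were tested, and 0 were called. Apart from Pecam1, at 63.9 to 82.6 CPM, each of the 9 was under 3 CPM in every library.

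The machinery downstream of the receptors was read from 2 lists. Of 37 genes for adaptors, kinases, ubiquitin ligases, caspases and sheddases, 0 were called by edgeR's quasi-likelihood test and 6 had an unadjusted p under 0.05. Over all 13022 genes tested, 1.81% were called and 1768 had an unadjusted p under 0.05. Of the 37, 5 had the libraries numbered 1 above those numbered 2 and 14 below, where 45.2% of all genes did not overlap. The median log2 fold change of the list was -0.09. Traf1, an adaptor induced by NF-kB, had 412, 437, 439 and 506 CPM, and Birc3, a ubiquitin ligase at TNF receptors, had 339, 360, 271 and 296. The second list held 16 genes for NF-kB subunits, their regulators and related genes such as Icam1 and Tnfaip8, with a median of 0.21. The list was chosen with earlier results of these data known, so its share of calls is not a result about NF-kB genes. In this list 3 were called, all higher in number 1, where 1.41% of all genes were. These were Nfkbid with 941, 1047, 467 and 558 CPM (log2 fold change 0.96, SE 0.11, edgeR adjusted p = 0.0143), Nfkbiz with 928, 962, 605 and 658 (0.58, SE 0.08, adjusted p = 0.0242) and Bcl3 with 200, 202, 142 and 142 (0.50, SE 0.08, adjusted p = 0.0375), all nuclear proteins of the IkB family. Tnfaip3, which encodes the inhibitor A20, had 4653, 4622, 2666 and 4122 CPM and did not pass. Heat shock and immediate early genes (15) had no call, and summed to 15323 and 15604 CPM in the libraries numbered 1, 11061 in wt 2 and 20185 in flox 2. Their part in these levels was not tested.

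Labelled flox was then compared with labelled wt. Here edgeR's quasi-likelihood test called 0 of the 33 genes and 1 had an unadjusted p under 0.05, while DESeq2 and limma-voom called 0 as well. Over all 13022 genes tested, 1 passed, which is 0.00768%, and 258 had an unadjusted p under 0.05. A single such gene among 33 is therefore not a result about the family. The gene with an unadjusted p under 0.05 was Tnfsf9, with 6.41 and 5.09 CPM in labelled wt 1 and wt 2 and 10.2 and 9.96 in labelled flox 1 and flox 2 (log2 fold change of flox over wt 0.81, edgeR adjusted p = 1). Its exons share 192 bases with Gm11110, which had its own row. Both libraries labelled flox lay above both labelled wt for 5 of the 33 genes (Tnfrsf4, Tnfrsf9, Tnfrsf18, Tnfsf9 and Ltbr) and below for 2 (Tnfrsf26 and Tnfrsf22), where 27% of all genes did not overlap. Because Maf did not follow these labels, the spread within a label holds the difference in Maf level, and a gene that misses the threshold here is not shown to be alike in both.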

How the data were processed

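Members and gene lists were chosen with earlier results of these data known. The submitters' processing notes name build mm10, edgeR 3.14, HTSeq 0.6.1 and TopHat2 2.1.1. Not given in the sources used here are settings, annotation and strand. Raw counts were deposited by the authors per gene symbol. The 5 summary rows (66.6% to 67.2% of column totals) were left out. The authors also deposited normalized values for 10618 genes, a signal that was only described. Counts were tested across all genes in R 4.3.3 with edgeR 4.0.16 (filterByExpr, TMM, robust glmQLFit and glmQLFTest, Benjamini-Hochberg threshold 0.05), once by title number and once by genotype label, with all 4 libraries. Each standard error was derived from the fold change and its F statistic. Scripts were tested on simulated counts. There the test by number called 58 of 100 genes with a true log2 fold change of 1 in either direction. It called 72 of 96 with a change of 2, and 5 of 12575 unchanged genes. A gene that did not pass may therefore still differ. With 2 libraries against 2, no permutation test was run. Ratios within a label have exact binomial 95% intervals. All reported genes are given with levels; full statistics are given for genes past the threshold and the 8 most abundant, and those of Fasl, Tnf, Tnfsf13b and some others were added after their values were seen. RPKM used exon lengths of GENCODE M21, a release on the same build, in which 94.5% of symbols were found. Alternatives were DESeq2 1.42.0, limma-voom 3.58.1, other scalings and filters, a block, and leaving out each library. No protein sequences were used here. Some marker genes are not reported here.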

Additional observations from a re-analysis of the deposited data

Results flagged for a closer look

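For 4 genes the ratio of number 1 to number 2 lay on opposite sides of 1 in the 2 genotype labels, with counting intervals that exclude 1 on each side. With 1 library behind each value, the difference between labels was not tested. Tnfrsf11a had a ratio of 0.311 within labelled wt (0.176 to 0.529) and 2.96 within labelled flox (1.83 to 5). For Tnfsf8 the ratio was 1.19 in wt (1.14 to 1.25) and 0.564 in flox (0.543 to 0.585), and for Tnfsf11 it was 1.53 in wt (1.45 to 1.62) and 0.915 in flox (0.868 to 0.964). Tnfrsf18 had 1.15 in wt (1.12 to 1.18) and 0.972 in flox (0.948 to 0.998).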

How the results depend on the processing

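Of the 13 alternatives, members called by number came to 2 with library size only, 5 without a low-count filter, 5 by DESeq2, 0 without robust spread, 0 by limma-voom (10 and 9 at an unadjusted p under 0.05) and 0 to 7 when 1 library was left out. Genes called by number came to 589 without the filter, 608 by DESeq2 and 46 (without wt 1) to 525 (without wt 2) with a library left out. By label, genes called were 2 without the filter, 0 by limma-voom, 14 by DESeq2 and 0 with any library left out, and 0 members were called under any alternative. With 1 library left out the log2 fold change by number changed sign for 11 of the 33 members. Among the most abundant these were Tnfrsf4 (-0.00776 to 0.427), Tnfrsf9 (-0.254 to 0.0433), Tnfrsf18 (-0.0928 to 0.249) and Tnfsf8 (-0.775 to 0.196), the ends being the fits without wt 2 and without flox 2. The others were Ltbr, Tnfrsf11a, Tnfrsf1a, Tnfrsf25, Tnfrsf26, Tnfsf4 and Tnfsf9, the widest being Tnfrsf11a (-1.11 to 0.937). With a replicate block, members called by number, with genotype label as the block, were 2 (Tnfsf10 and Fasl), and 0 by label with the number as the block. Numbers do not mark a shared animal or batch in the labels. Across genes, same-numbered libraries correlated at 0.362 in their deviations from the label mean. The cause of these changes was not tested. Depth limits the genes of few counts: the ratio of Cd40 within labelled wt was 1.92, with a counting interval of 1.09 to 3.47.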
